A study of Mus musculus with 8 samples.

Results

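Interferon-stimulated genes (ISGs) were followed across the immune cells of the mouse posterior eye. The members were a list of 44 gene symbols, and 42 of them had a row among the 32285 genes of the 4 RNA count matrices. Mx1 and Mx2 were not analysed here. Cells came from female WT and Nr4a1-/- mice aged 10 to 12 weeks, and Nr4a1-/- mice lack the nuclear receptor NR4A1 in every cell. Laser-treated eyes were taken on day 3 after 8 burns per eye, and control eyes received 0 burns. Eyes of 22 mice were pooled for WT control and for Nr4a1-/- control, and eyes of 11 to 12 mice for WT laser and for Nr4a1-/- laser. CD45+ cells, the leukocytes, were sorted and profiled cell by cell, for RNA by sequencing and for surface proteins by antibody-derived tags (ADTs), which are antibodies that carry DNA barcodes. The labels give C57BL/6J as the strain of every sample, whereas the study's methods name B6;129S2-Nr4a1tm1Jmi/J for the knockouts, so strain and genotype cannot be told apart. Each group was 1 pooled library. How much animals vary can therefore not be read from these data, and no p-value is given between libraries. Where 4 values follow each other, they are those of WT control first, then of WT laser, then of the Nr4a1-/- control and last of the Nr4a1-/- laser library.

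Type I interferons bind the receptor IFNAR1/IFNAR2, and kinases at the receptor then activate the factor ISGF3, of which STAT2 and IRF9 are subunits. It binds the interferon-stimulated response element and switches on antiviral effectors, RNA sensors, the ubiquitin-like protein ISG15 and feedback inhibitors such as USP18. Interferon gamma acts through its own receptor and shares part of these targets, the guanylate-binding proteins among them. In the retina and brain, microglia and infiltrating phagocytes can respond to interferon without any virus, for example after injury.

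Many ISG promoters carry the response element, so the letters GAAANNGAAA and their reverse complement TTTCNNTTTC, where N is any base, were searched on both strands in the RefSeq promoters of build GRCm38.p6, from 250 bases before to 50 bases after each start, with overlapping matches counted. An entry matched 34 of the 44 members by symbol, and 21 of these 34 (61.8%) held a match, whereas 1079 of 27025 genes of the whole table (3.993%) did. By role, 4 of 5 IFIT genes, 3 of 3 guanylate-binding genes, 3 of 4 nucleic acid sensors and 2 of 4 OAS genes held it. No match lay in the window of Ifit2, Oasl1, Oasl2, Herc6, Irf7, Irf9, Ifi209, Cmpk2, Isg20, Ifi44, Xaf1, Phf11d or Sp100. A match is a description of the letters and was not tested as a binding site. The stretch from 170 to 31 bases before the start is printed for 5 members whose levels are followed below, each from a different role, 5′ to 3′ on the gene's strand and with the matches in capitals. Their positions are chr4:156200849-156200988 on the minus strand for Isg15, chr19:34583359-34583498 on the plus strand for Ifit3, chr3:142620493-142620632 on the plus strand for Gbp2, chr8:71537503-71537642 on the minus strand for Bst2 and chr12:26456483-26456622 on the minus strand for Rsad2.
Isg15: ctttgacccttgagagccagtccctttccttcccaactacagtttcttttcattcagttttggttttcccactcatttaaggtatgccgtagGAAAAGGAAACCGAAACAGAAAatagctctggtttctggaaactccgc
Ifit3: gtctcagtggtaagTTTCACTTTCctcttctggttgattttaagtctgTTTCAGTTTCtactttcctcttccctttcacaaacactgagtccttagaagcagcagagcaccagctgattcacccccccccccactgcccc
Gbp2: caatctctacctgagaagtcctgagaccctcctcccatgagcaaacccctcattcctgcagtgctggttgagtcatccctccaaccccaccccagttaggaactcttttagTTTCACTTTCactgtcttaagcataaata
Bst2: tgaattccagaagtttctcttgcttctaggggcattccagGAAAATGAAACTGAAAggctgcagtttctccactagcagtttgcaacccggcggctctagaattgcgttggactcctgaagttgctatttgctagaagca
Rsad2: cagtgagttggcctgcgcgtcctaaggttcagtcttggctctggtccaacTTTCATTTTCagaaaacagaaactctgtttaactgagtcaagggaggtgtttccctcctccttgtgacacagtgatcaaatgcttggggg
Isg15 held 3 overlapping matches within 1 run, Ifit3 held 2 separate matches, Bst2 held 2 overlapping matches, and Rsad2 and Gbp2 held 1 each. Several members are neighbours in the genome: the 5 IFIT genes lie on chromosome 19, the 5 OAS genes on chromosome 5, Gbp2, Gbp3 and Gbp7 on chromosome 3, and Ifi204, Ifi209 and Ifi213 on chromosome 1. These families hold near-identical copies, so reads may be split between copies such as Ifit3 and Ifit3b, and single values within a family are uncertain to that extent.

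After filtering, 11223 of 11624 barcodes were kept, at 3763, 3791, 2020 and 1649 cells. The shallowest library was Nr4a1-/- laser, with 7848548 RNA unique molecular identifiers (UMIs), and the deepest WT laser, with 38052948. Kept cells had a median of 3676 to 7618 UMIs, and 18 barcodes occurred in more than 1 library. Lineages were gated by the number of marker genes detected, with no member among the markers. The gate placed 9979 cells (88.9%), of which 1321 lay within the reach of a stricter gate, and left 1244 ungated. A gate of this kind is a range of marker counts, not a cell type. Nr4a1 itself was at 310, 278, 90.7 and 54.9 counts per 1000000 UMIs (CPM) in all cells, lower in both knockout libraries. By its label the Nr4a1-/- control library has a library number other than that of the rest, and it stood apart in the heat-shock gene Hspa1a, at 64.5, 73.1, 585 and 57.8 CPM.

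A core of 14 strongly inducible members was summed (Isg15, Ifit1, Ifit2, Ifit3, Ifit3b, Ifit1bl1, Oasl1, Oasl2, Oas1a, Oas2, Oas3, Rsad2, Usp18 and Cmpk2). This core was higher in neutrophils, classical monocytes and macrophages than in the lymphocytes, but not in every myeloid lineage. In neutrophils it was at 1084, 1315, 1243 and 1006 CPM, in classical monocytes at 681, 922, 696 and 861 CPM and in macrophages at 602, 917, 572 and 502 CPM. NK cells were at 93.4, 110, 88.9 and 61.8 CPM, and no NK library reached the lowest of the neutrophil, monocyte or macrophage libraries. T cells were at 140, 236, 101 and 238 CPM and B cells at 109, 149, 67.2 and 152 CPM, also below these 3 lineages in every library. Microglia, at 307, 588, 48.3 and 163 CPM, overlapped with both sides. Conventional type 2 dendritic cells (cDC2) were at 374, 598, 205 and 287 CPM, above the lymphocytes and below the 3 myeloid lineages of the same library. Conventional type 1 dendritic cells (cDC1), at 140, 262, 55.8 and 312 CPM, overlapped with the lymphocytes and were below all 3 of them in the Nr4a1-/- control library. Non-classical monocytes held 228, 150, 5 and 2 cells. In WT control and WT laser their core was at 185 and 246 CPM, beside 140 and 236 CPM in T cells.

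**Figure D1:**
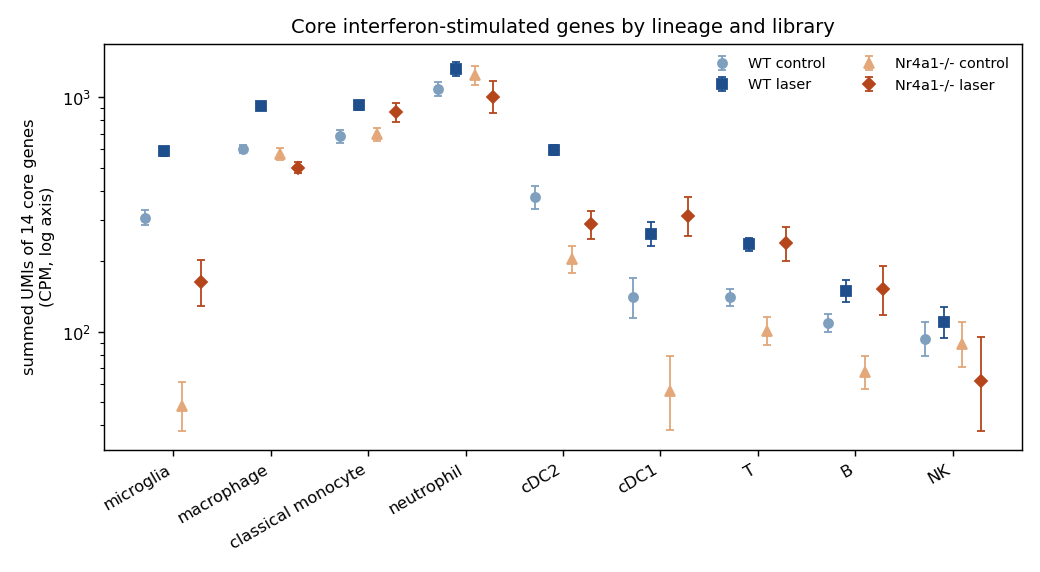
Summed level of the 14 core ISGs in 9 gated lineages (x axis) on a log axis of CPM (y axis), 1 point per library in 4 colours, with exact Poisson 95% bars for counting error. Neutrophils, classical monocytes and macrophages lie at or above 502 CPM in all 4 libraries, NK, T and B cells lie at or below 238 CPM, and microglia range from 48.3 to 588 CPM.

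Lineages were tested on UMIs summed per lineage and library, with the library as a block and each lineage set against the mean of the other 8, by edgeR's quasi-likelihood test with Benjamini-Hochberg adjustment over 11316 genes and a threshold of 0.05. All 41 members with enough counts entered, and Ifit1bl1, with few UMIs in any lineage, did not. The p-values rest on 4 pooled libraries. In classical monocytes 38 of 41 members were higher and 0 lower (27.6% and 18.6% of all genes), with a median log2 difference of 1.497 against 0.01 over all genes. In macrophages 33 were higher and 2, Sp100 and Isg20, lower (31.2% and 19.5%), with a median of 1.42, and in neutrophils 25 were higher and 3, Bst2, Ifi209 and Phf11b, lower (24.2% and 18.8%), with a median of 1.03. In cDC2 19 were higher and 0 lower (28.1% and 16.7%), at a median of 0.68. Microglia were divided, with 12 higher and 9 lower (32.4% and 30.3%) and a median of −0.06, both shares of members close to those of all genes. In the remaining lineages more members were lower than higher, with 14 of 41 lower and 6 higher in cDC1 (20.4% and 22.2%), 20 lower and 2 higher in T cells (26.4% and 30.6%), 29 lower and 2 higher in B cells (28.0% and 30.2%), and 35 lower and 3 higher in NK cells (25.4% and 24.5%). The medians were −0.44, −0.60, −1.29 and −1.71. Without the WT laser library 6 members were higher in microglia, 4 in B cells, and 2 were lower in cDC2. Without the WT control library 1 was lower in macrophages, 1 was lower in neutrophils and 4 were higher in T cells.

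**Figure D2:**
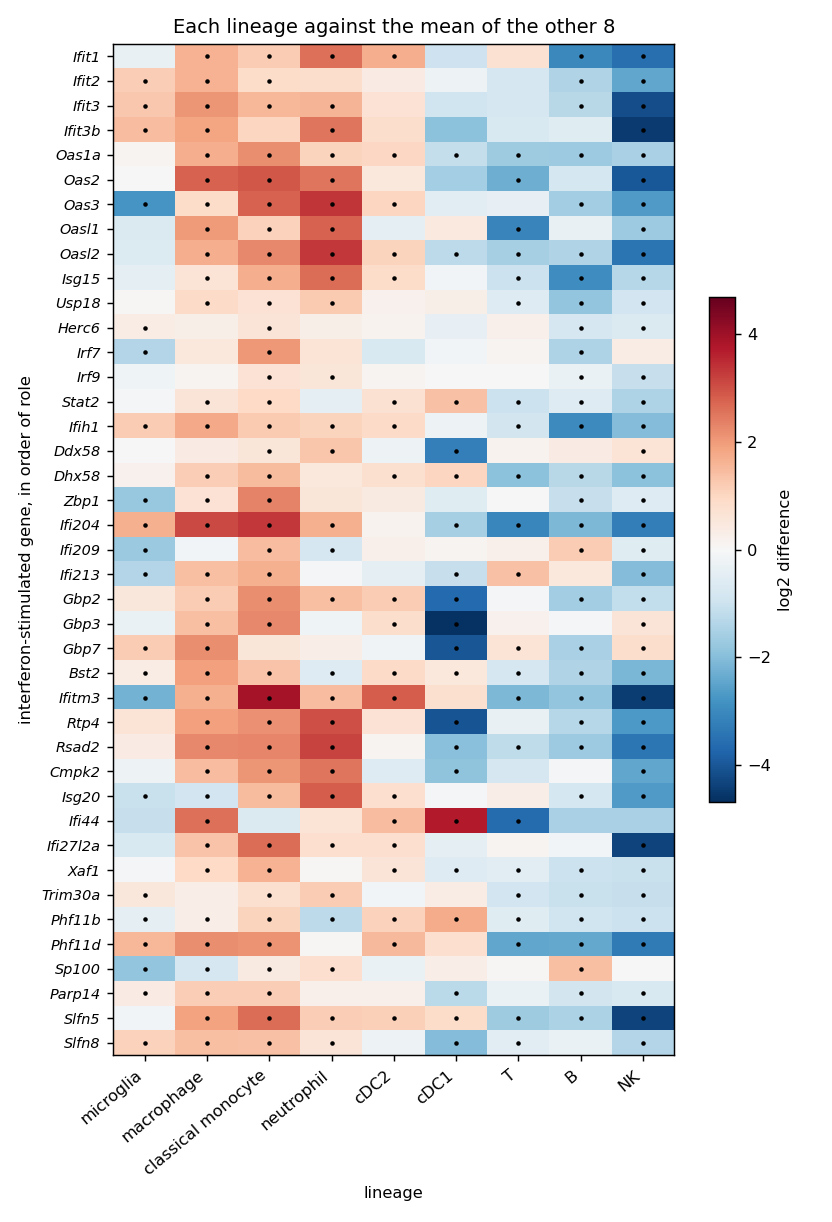
Heatmap of the log2 difference of each of the 41 tested members (y axis, by role) in each of 9 lineages (x axis) from the mean of the other lineages, with red for higher, blue for lower and a black dot where the adjusted p was under 0.05. Classical monocytes are higher for 38 of 41 members and NK cells lower for 35, whereas microglia are divided at 12 and 9.

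In the ISG15 pathway, Isg15, a ubiquitin-like modifier, was at 374, 339, 565 and 400.0 CPM in neutrophils, above every library of the other 8 lineages, and at 15.1, 36.9, 8.399 and 19.2 CPM in B cells. The log2 difference was 2.63 in neutrophils (edgeR quasi-likelihood test, adjusted p = 7.8499e-10) and −2.92 in B cells (edgeR, adjusted p = 2.6084e-07). In macrophages Isg15 differed by 0.65 (edgeR, adjusted p = 0.04593), a call that was lost without the WT laser library (adjusted p = 0.26) and in DESeq2 (adjusted p = 0.11). Usp18, the protease that removes ISG15 and dampens receptor signalling, was higher in neutrophils by 1.22 on the log2 scale and lower in B cells (−1.85), and with cells thinned to 2000 UMIs the neutrophil difference was 0.16. Herc6, the mouse ligase that attaches ISG15, was higher in classical monocytes by 0.60.

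The IFIT genes encode proteins that bind foreign RNA. Of the 4 tested, 4 were higher in macrophages, 3 in classical monocytes, 3 in neutrophils and 3 in microglia, and the median log2 difference ran from 1.11 in monocytes to 2.07 in neutrophils. Ifit3 was at 38.0, 78.3, 43.4 and 46.2 CPM in macrophages and at 0, 3.62, 0 and 3.09 CPM in NK cells, so that no library of the one overlapped with the other. In microglia Ifit3 was higher by 1.28 (edgeR, adjusted p = 0.00051) and Ifit3b by 1.44 (edgeR, adjusted p = 0.0025). Both rest on uneven libraries, since Ifit3 was at 29.2, 95.4, 2.04 and 33.8 CPM there, and without WT control the Ifit3b call was lost (adjusted p = 0.053). Ifit1 was higher in cDC2 by 1.73, a call lost with thinned cells (adjusted p = 0.080), and it was lower in B cells (difference −3.04).

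The OAS family includes sensors that activate RNase L, though not every member does so. All 5 OAS genes were higher in classical monocytes, in macrophages and in neutrophils, with medians of 2.25, 1.70 and 2.76 log2 units. Oasl2 in neutrophils was at 177, 244, 157 and 149.99 CPM (difference 3.33, edgeR, adjusted p = 2.4103e-13). In microglia it was at 14.2, 46.4, 2.04 and 6.34 CPM, below every neutrophil library. Oas3 was higher by 3.34 in neutrophils and lower in microglia (−2.78, edgeR, adjusted p = 6.7944e-06), and Oas2 was higher by 2.92 in monocytes and 2.77 in macrophages. In microglia 0 of 5 OAS genes and 3 of 4 IFIT genes were higher.

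Of the transcription factors, Irf7, which amplifies interferon production, was at 156, 167, 209 and 197 CPM in classical monocytes and at 19.0, 54.1, 9.52 and 23.2 CPM in microglia. The differences were 2.03 (edgeR, adjusted p = 8.9555e-09) and −1.36 (edgeR, adjusted p = 0.000409), and the libraries of the 2 lineages did not overlap. Stat2, a subunit of ISGF3, was highest relative to the other lineages in cDC1, at 74.3, 95.3, 82.0 and 110.4 CPM (difference 1.37, edgeR, adjusted p = 1.225e-08), and lower in NK cells (−1.44). Irf9, the DNA-binding subunit, was higher in monocytes by 0.67 and in neutrophils by 0.58.

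Among the nucleic acid sensors, Ifi204 was the member with the largest difference in macrophages (3.11, edgeR, adjusted p = 8.1041e-13) and in microglia (1.66, edgeR, adjusted p = 5.125e-06) and the second largest in classical monocytes (3.32). It is 1 of a family of near-identical genes, and its relatives followed it in part. Ifi213 and Ifi209 were also higher in classical monocytes, by 1.69 and 1.45. In macrophages Ifi213 was higher by 1.42 and Ifi209 was not called (−0.13), and in microglia both were lower (−1.39 and −1.74). Unlike Ifi204 in this account, Ifi213 was also higher in T cells by 1.36 (53.4, 62.3, 66.1 and 65.1 CPM, edgeR, adjusted p = 1.2419e-06) and Ifi209 in B cells by 1.18 (145, 162, 165 and 141 CPM). Ifih1, the double-stranded RNA sensor MDA5, was higher in microglia by 1.21 and lower in B cells (difference −3.0026). Zbp1, a sensor of left-handed nucleic acids, was lower in microglia (−1.79), and Ddx58, the RNA sensor RIG-I, was higher in NK cells by 0.66. Dhx58 was higher in cDC1 by 1.02, a call lost with thinned cells (adjusted p = 0.62).

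The guanylate-binding proteins, which attack vacuoles of intracellular pathogens, were near 0 in cDC1. There Gbp2 was at 2.75, 3.77, 1.74 and 2.76 CPM, Gbp7 at 1.38, 4.72, 0 and 2.76 CPM and Gbp3 at 0, 1.89, 0 and 0 CPM. Each value rests on 5 UMIs or fewer, in 36 to 63 cells per library, and all 3 genes were lower in the test (differences of −3.64, −4.02 and −4.63, edgeR, adjusted p = 1.0266e-06, 1.0377e-07 and 6.0303e-08). In macrophages all 3 were higher. Gbp7 was also higher in T cells by 0.65 and in NK cells by 0.81, and Gbp3 in NK cells by 0.60. The T cell call of Gbp7 was lost without WT laser (adjusted p = 0.051), and the NK call of Gbp3 without WT control or Nr4a1-/- control (adjusted p = 0.12 each) and without Nr4a1-/- laser (adjusted p = 0.055).

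Of the membrane proteins, Ifitm3, which blocks viral entry, had the widest range. It was at 4355, 3946, 4703 and 3974 CPM in classical monocytes (difference 3.91, edgeR, adjusted p = 3.8526e-14), at 2082, 2273, 1935 and 2183 CPM in cDC2 (2.84, edgeR, adjusted p = 2.7151e-10) and at 33.1, 50.1, 3.29 and 58.7 CPM in NK cells (−4.45, edgeR, adjusted p = 6.105e-09). Microglia, at 64.8, 251, 38.1 and 163 CPM, were lower (−2.23). Bst2 (tetherin), which holds budding virus at the membrane, was higher in macrophages by 1.91 (368, 501, 544 and 455 CPM, edgeR, adjusted p = 4.1921e-14) and lower in neutrophils (−0.62, at 56.0, 196, 43.4 and 87.5 CPM), a call lost without WT control (adjusted p = 0.061). Rtp4, a chaperone of receptors and inhibitor of viral replication, was higher in neutrophils by 3.03 and lower in cDC1 (difference −4.05), where it was at 0, 2.83, 0 and 2.76 CPM.

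Among the other effectors, Rsad2 (viperin), which makes a chain-terminating nucleotide, was at 155, 179, 141 and 93.7 CPM in neutrophils (difference 3.16) and at 68.6, 155, 76.0 and 79.6 CPM in macrophages (2.26, edgeR, adjusted p = 9.4112e-10). Ifi27l2a was at 2087, 1668, 2164 and 2147 CPM in monocytes (2.63) and at 27.2, 50.7, 12.1 and 61.8 CPM in NK cells (−4.37). In NK cells Slfn5 (−4.34) and Ifit3b (−4.49) were lower, the latter a call lost under the stricter gate (adjusted p = 1). Ifi44 was higher in cDC1 by 3.71 (35.8, 16.0, 3.49 and 13.8 CPM, edgeR, adjusted p = 4.8362e-08) and in macrophages by 2.60, and lower in T cells (−3.62). Its cDC2 difference of 1.46 was lost in DESeq2 (adjusted p = 0.11). Phf11b was also higher in cDC1, by 1.73. Sp100, a component of nuclear bodies, went the other way from most members, as it was highest in B cells (597, 602, 588 and 712 CPM, 1.41, edgeR, adjusted p = 4.3405e-09) and lower in microglia (−1.84) and macrophages (−0.80).

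Laser treatment was next compared with control within each lineage, as a ratio of CPM with an exact 95% interval. The intervals cover counting error only, and since the core UMIs sat in few cells they are too narrow even as a measure of sampling cells. The summed core was higher after laser in all 9 lineages of WT eyes, with ratios from 1.18 (0.939–1.48) in NK cells to 1.92 (1.76–2.09) in microglia and a mean log2 ratio of 0.59. In Nr4a1-/- eyes 6 of 9 lineages were higher, at a mean of 0.71, and macrophages, neutrophils and NK cells were lower, at 0.877 (0.810–0.950), 0.809 (0.672–0.971) and 0.695 (0.403–1.15). Over all cells the ratio was 2.09 (2.04–2.15) in WT and 1.48 (1.41–1.55) in Nr4a1-/- eyes, the WT value being above that of each of the 9 lineages. The all-cell ratio mixes level with composition, since macrophages were 13.4%, 24.9%, 13.7% and 29.3% of the kept cells and B cells 22.9%, 10.8%, 23.96% and 10.7%. With the ISG-carrying cells defined further below left out, the mean log2 ratio was 0.092 in WT and 0.37 in Nr4a1-/- eyes. Cells too shallow for that definition were left out as well. Too few Nr4a1-/- laser neutrophils remained, so the 0.37 leaves out neutrophils, which the mean of 0.71 includes. These 2 means are thus not over the same lineages.

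Microglia had the most members past 2-fold after laser in both genotypes. In WT 23 of 41 members with at least 10 UMIs were 2-fold higher and 0 lower (8.12% and 5.49% of all genes), with a median log2 ratio of 1.04 against 0.04 over all genes. In Nr4a1-/- microglia, 16 of 32 were 2-fold higher and 1 lower (9.22% and 8.66%), with a median of 0.98. By role, in WT, all 5 OAS genes were 2-fold higher, as were 9 of 13 other effectors, 4 of 7 sensors, 2 of 3 membrane proteins, 1 of 4 IFIT genes, 1 of 3 genes of the ISG15 pathway, 1 of 3 transcription factors and 0 of 3 guanylate-binding proteins. Ifi27l2a, at 105, 646, 56.4 and 456 CPM, was 6.13-fold (5.39–6.99) higher in WT and 8.08-fold (6.25–10.5) higher in Nr4a1-/- microglia. Ifitm3 was 3.87-fold (3.27–4.60) and 4.27-fold (2.99–6.14) higher. Ifi204, at 83.3, 315, 38.8 and 137 CPM, was 3.79-fold and 3.54-fold higher, and Slfn5, at 56.5, 164, 13.6 and 80.3 CPM, was 2.90-fold and 5.90-fold higher. These 4 genes led the members that were higher in both genotypes and were named by that rule. Their shared direction was thus set by the choice.

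Other microglial members had small ratios or few UMIs. Isg15, at 117, 122, 29.2 and 29.6 CPM, was level with control in both genotypes, with ratios of 1.04 (0.895–1.21) and 1.01 (0.511–1.88). Rsad2, at 24.5, 101, 0.680 and 23.2 CPM, was 4.12-fold (3.13–5.49) higher in WT, and its Nr4a1-/- control value is a single UMI. Ifit3 was 3.27-fold (2.53–4.27) higher in WT and 16.6-fold (4.74–88.7) higher in Nr4a1-/-, the latter against 3 UMIs. Irf7 was 2.86-fold and 2.44-fold higher, and Stat2, at 36.3, 61.8, 25.8 and 35.9 CPM, 1.70-fold and 1.39-fold. Bst2, at 148, 257, 149.6 and 234 CPM, was 1.73-fold and 1.57-fold higher. Usp18 was at 13.0, 26.8, 3.40 and 16.9 CPM, higher after laser in both genotypes, and Gbp2 was at 41.5, 47.9, 38.8 and 54.9 CPM, within counting error of control in both. The members that were lower in both genotypes were Herc6 (64.0, 56.8, 34.0 and 27.5 CPM) and Gbp7 (91.2, 86.8, 79.6 and 16.9 CPM), and only the Nr4a1-/- ratio of Gbp7, 0.212 (0.0896–0.432), lay outside counting error. Dissociation-stress genes moved with laser too: their summed level was 18468, 7828, 20963 and 10466 CPM in microglia, and 6 of 10 were 2-fold lower in both genotypes. Median depth per microglial cell was 7968, 9789.5, 7691 and 4222 UMIs. The stricter gate left out 52 of 313, 89 of 334, 17 of 184 and 33 of 98 microglia. Macrophages were the next lineage by marker count in each library. The part of stress, depth and gate in the result was not tested. The core ratio of Nr4a1-/- microglia, 3.37 (2.41–4.72), was 6.99 without Isg15, 5.26 with thinned cells and 2.18 without ISG-carrying cells.

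**Figure D3:**
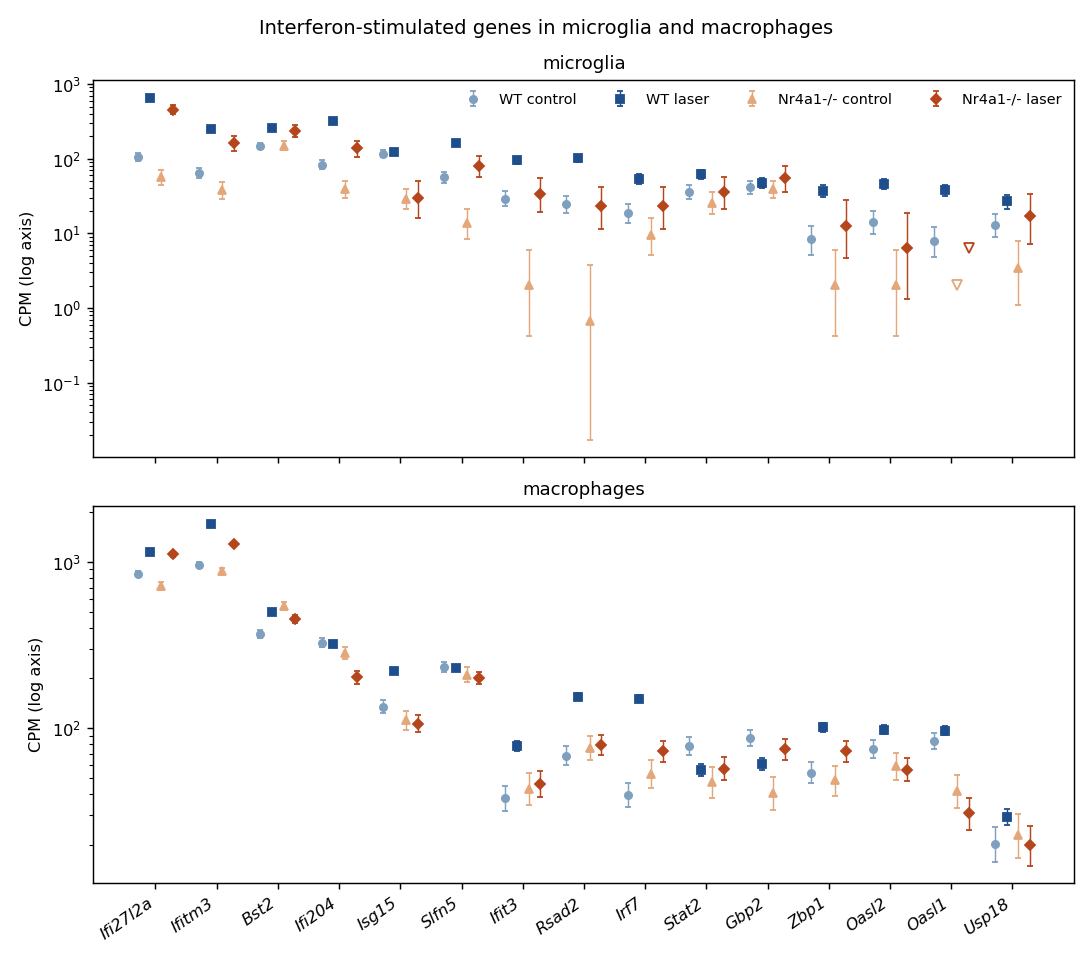
Levels (y axis, CPM, log axis) of 15 named members (x axis) in microglia and in macrophages, 1 point per library, with open downward triangles at the level of 3 UMIs where none was found. In microglia Ifi27l2a, Ifitm3, Ifi204 and Slfn5 are higher in both laser libraries than in the control of the same genotype, and Oasl1 has no UMI in either Nr4a1-/- library.

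In macrophages fewer members were higher. In WT 8 of 42 were 2-fold higher after laser and 0 lower (4.86% and 12.2%), at a median log2 ratio of 0.44 against −0.17 over all genes, whereas in Nr4a1-/- macrophages 0 of 42 were higher and 1 lower (7.47% and 9.73%), at a median of −0.11. Irf7, at 39.97, 150.4, 53.2 and 72.6 CPM, was 3.76-fold (3.17–4.50) higher in WT and 1.36-fold (1.07–1.75) in Nr4a1-/-. Rsad2 was 2.25-fold (1.97–2.59) and 1.05-fold (0.845–1.30), Ifit3 2.06-fold and 1.06-fold, and Isg15, at 135, 222, 112 and 107 CPM, 1.65-fold (1.49–1.82) and 0.955-fold (0.798–1.14). For these genes the WT laser library stood above the other 3. Isg15, Rsad2 and Ifit3 were within counting error of control in Nr4a1-/-, and Irf7 was not. The difference between the genotypes was not tested, as there is 1 library each. Members that were higher in both genotypes were led by Cmpk2 (8.50, 16.3, 8.79 and 13.9 CPM), a mitochondrial nucleotide kinase next to Rsad2, then Zbp1 (54.1, 101, 48.6 and 72.6 CPM), Ifitm3 (960.3, 1686, 876 and 1279.9 CPM) and Irf7. Those that were lower in both were led by Oas2, at 66.3, 37.6, 63.6 and 36.7 CPM with ratios of 0.567 (0.481–0.670) and 0.577 (0.438–0.757), then Slfn8 (119, 85.0, 115 and 74.1 CPM), Ifih1 and Irf9. Usp18 (20.1, 29.3, 22.7 and 19.8 CPM) followed the pattern of Isg15, Ifi27l2a (849, 1148, 717 and 1111 CPM) was higher in both, and Stat2 (78.5, 56.1, 47.6 and 57.2 CPM) and Gbp2 (87.3, 61.1, 40.8 and 74.8 CPM) went opposite ways in the 2 genotypes. Hspa1a in macrophages was at 185, 155, 1367 and 99.0 CPM, and its part in the result was not tested. In macrophages with no UMI of the resident genes Lyve1, Folr2 or Cd163, a subset chosen after seeing the data, the core was at 456, 898, 367 and 305 CPM, with ratios of 1.97 (1.80–2.16) in WT and 0.830 (0.711–0.969) in Nr4a1-/-.

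In classical monocytes the member medians stayed near 0, at −0.04 in WT and 0.16 in Nr4a1-/-. Ifit3, at 23.8, 51.7, 29.8 and 45.9 CPM, was 2.18-fold (1.49–3.24) higher in WT and 1.54-fold (0.901–2.58) in Nr4a1-/-. Gbp2, at 83.1, 112, 81.1 and 215 CPM, was 1.34-fold and 2.65-fold (2.03–3.45) higher, with the Nr4a1-/- laser library above the rest. Ifit2 (21.3, 31.9, 20.8 and 55.1 CPM) and Phf11d (20.004, 30.9, 44.4 and 68.0 CPM) were also higher in both, whereas Oas1a (61.3, 39.1, 31.2 and 16.5 CPM), Irf9 (85.6, 68.1, 81.1 and 62.4 CPM), Ifi204 (341, 292, 314 and 264 CPM) and Ifi213 (71.3, 50.7, 70.7 and 62.4 CPM) were lower in both. Isg15 in monocytes was at 183, 297, 263 and 298 CPM, Rsad2 at 84.4, 169, 58.3 and 75.3 CPM and Bst2 at 231, 288, 394 and 343 CPM. Stat2 (74.4, 58.4, 67.3 and 86.3 CPM) and Usp18 (23.1, 17.4, 18.0 and 20.2 CPM) showed no common direction.

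Neutrophils, which had the highest core level, held few cells (161, 131, 93 and 57) at a median of 3809, 3795, 3293 and 1780 UMIs. Of their 19 members with 20 UMIs in the higher library of both pairs, 8 were lower in both genotypes and 1 higher (37.0% and 35.2% of all genes with that many UMIs). Those lower were led by Oas3 (89.2, 58.6, 128 and 75.0 CPM), Sp100 (394, 284, 375 and 218.7 CPM), Trim30a (309, 267, 342 and 256 CPM) and Isg15. Slfn5 (138, 167, 114 and 119 CPM) was the 1 that was higher. Among members with fewer UMIs, Bst2 was 3.49-fold (2.46–5.04) higher in WT and 2.01-fold (0.911–4.41) in Nr4a1-/-, on 14 to 127 UMIs per library. Ifit3 (31.8, 69.4, 19.0 and 37.5 CPM) was also higher in both, whereas Irf7 (77.7, 84.8, 94.99 and 18.7 CPM) and Gbp2 (80.2, 29.3, 78.7 and 106 CPM) went opposite ways in the 2 genotypes. The WT core ratio of neutrophils, 1.21, was 0.632 (0.525–0.758) without ISG-carrying cells. The member medians were 0.25 and −0.06, beside all-gene medians of 0.22 and 0.27.

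The dendritic cells differed between genotypes in their ratios. In WT cDC2, 16 of 42 members were 2-fold higher and 1 lower after laser (9.15% and 5.69%), with a median of 0.70, whereas the Nr4a1-/- median was −0.03. Ifit3 in cDC2, at 7.38, 53.2, 9.06 and 14.1 CPM, was 7.21-fold (3.23–19.96) and 1.55-fold (0.580–4.15) higher. Irf7, at 17.2, 64.3, 21.7 and 21.1 CPM, was 3.73-fold (2.17–6.97) and 0.970-fold (0.473–1.93), and Rsad2, at 11.1, 47.6, 16.3 and 19.7 CPM, was 4.30-fold and 1.21-fold. The WT laser library stood alone for all 3, yet Isg15, at 216, 205, 67.9 and 112 CPM, did not follow them. Under the stricter gate the core ratio of cDC2 was 1.09 in WT and 3.54 in Nr4a1-/- eyes, the opposite order of the main values of 1.60 and 1.40. In cDC1 the core ratios were 1.87 (1.48–2.37) and 5.59 (3.75–8.55), and without ISG-carrying cells 0.888 and 1.61. In Nr4a1-/- laser cDC1, 1 cell held 61 of the 113 core UMIs, the 5 richest cells held 82.3%, and Isg15 made up 63.7%. Nr4a1-/- control cDC1 held 32 core UMIs in 36 cells. The ratio of 5.59, a log2 ratio of 2.48, was the highest in the Nr4a1-/- mean of 0.71. Isg15 in cDC1 was at 57.8, 84.0, 20.9 and 199 CPM and Ifitm3 at 358, 928, 424 and 936 CPM, higher after laser in both genotypes.

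Among lymphocytes, T cells had the most members that were higher in both genotypes, 22 of 28 with 20 UMIs in the higher library of both pairs (34.6% of all genes with that many UMIs). In WT 5 of 41 were 2-fold higher (6.32%) and in Nr4a1-/- 14 of 36 (9.10%), with medians of 0.35 and 0.81. Isg20, an exonuclease, at 12.8, 46.2, 14.8 and 59.9 CPM, was 3.61-fold (2.63–5.04) and 4.05-fold (2.44–6.76) higher. Slfn5, at 21.97, 41.5, 11.1 and 59.9 CPM, was 1.89-fold and 5.40-fold higher, Isg15, at 45.2, 78.8, 36.5 and 87.3 CPM, 1.74-fold and 2.39-fold, and Ifit1, at 13.1, 23.6, 13.4 and 22.3 CPM, 1.80-fold and 1.66-fold. Both laser libraries were above both controls for these 4 genes, which were named because they led the members higher in both genotypes. Ifitm3 in T cells ran from 16.6 CPM in Nr4a1-/- control to 385 CPM in Nr4a1-/- laser, with 99.6 and 131 CPM in the WT libraries. In Nr4a1-/- laser it was at 1279.9 CPM in macrophages and 3974 CPM in classical monocytes. The part of RNA from such cells in the values of lymphocytes was not tested. Ifi209 was the only member with 20 UMIs that was lower in both (81.3, 74.3, 85.1 and 82.2 CPM), by less than counting error. Dissociation-stress genes moved with laser in T cells too, at a summed 1964, 2903, 2165 and 3649 CPM, with 4 of 10 past 2-fold higher in WT and 6 of 10 in Nr4a1-/- (medians of 0.81 and 1.23), and their part in the result was not tested. In B cells 13 of 35 members were 2-fold higher in Nr4a1-/- eyes (8.26%), at a median of 0.62 beside 0.05 over all genes. The WT median was 0.06, close to the 0.02 of all genes. Slfn5 (27.9, 58.3, 18.6 and 42.7 CPM), Gbp2 (10.2, 16.7, 8.84 and 25.6 CPM), Bst2 (61.5, 88.8, 57.0 and 85.5 CPM) and Irf7 (25.5, 33.9, 19.0 and 38.5 CPM) led the B cell members higher in both genotypes and were named for that. In NK cells, Ifi27l2a was 1.87-fold (1.27–2.78) and 5.12-fold (2.34–11.8) higher, and Ddx58 (56.3, 70.6, 49.4 and 58.7 CPM), Zbp1 (37.1, 44.7, 26.3 and 43.2 CPM) and Trim30a (82.1, 91.1, 98.7 and 124 CPM) were higher by less than counting error. Isg15 in NK cells was at 57.0, 49.5, 54.8 and 24.7 CPM, lower in both, as were Gbp2, Irf9 and Ifi209.

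Nr4a1-/- was then compared with WT under the same treatment. Microglia had the lowest ratios of any lineage, with the core at 0.157 (0.122–0.201) of WT in control and 0.276 (0.217–0.347) after laser. In control 18 of 39 members were 2-fold lower and 0 higher (5.70% and 2.96%), and after laser 20 of 40 were lower and 0 higher (9.28% and 6.34%), with medians of −0.90 and −1.0045. Of 38 members with 20 UMIs in the higher library of both pairs, 31 were lower in both (28.2% of all genes with that many UMIs), whereas Gbp3 (10.3, 15.2, 12.2 and 14.8 CPM) was within counting error of 1 in both, at 1.19 and 0.975.

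By role, in control, 4 of 4 IFIT genes and 4 of 4 OAS genes were 2-fold lower in Nr4a1-/- microglia, as were 4 of 7 sensors and 2 of 3 genes of the ISG15 pathway. Isg15 was at 0.249 (0.177–0.344) of WT in control and 0.242 (0.131–0.411) after laser. Oasl1 had 20 and 127 UMIs in the WT libraries and 0 in both Nr4a1-/- libraries, where 3 UMIs would be 2.04 and 6.34 CPM, against 7.90 and 37.8 CPM in WT. Oasl2 was at 0.144 (0.0283–0.454) and 0.137 (0.0279–0.407), and Rsad2 at 0.0278 (0.000692–0.161), from 1 UMI, and 0.231 (0.114–0.418). Ifih1, at 95.6, 124, 21.8 and 46.5 CPM, was at 0.228 (0.152–0.330) and 0.376 (0.233–0.577). For all 5 genes both Nr4a1-/- libraries were below both WT libraries. Oasl1, Oasl2, Rsad2 and Isg15 were named as leading the members lower in both pairs, so their shared direction was set by the choice. Some members outside the core were closer to WT. Bst2 was at 1.01 (0.849–1.19) and 0.913 (0.742–1.11) of WT, and Ifi27l2a at 0.535 (0.413–0.687) and 0.706 (0.611–0.813). In WT control, however, 5 microglia held 62.5% of the core UMIs, and the shares of the 5 richest cells were 32.5%, 29.6% and 75.3% in the other libraries. Without ISG-carrying cells the core ratios were 0.412 (0.313–0.536) and 0.415 (0.303–0.556). Microglial Hspa1a was at 235, 114, 669 and 99.3 CPM, and its part in the control ratio was not tested.

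In macrophages the core ratio was 0.950 (0.882–1.02) in control and 0.547 (0.517–0.579) after laser. In control 0 of 41 members were 2-fold higher and 1 lower (3.25% and 5.54%), and after laser 0 of 42 were higher and 6 lower (5.05% and 3.59%), with medians of 0.07 and −0.47. Oasl1, at 83.9, 96.9, 41.9 and 30.8 CPM, was at 0.499 (0.385–0.640) and 0.318 (0.251–0.397) of WT. Ifih1, at 135, 116, 75.5 and 52.1 CPM, was at 0.561 (0.462–0.676) and 0.448 (0.374–0.533), Oas1a, at 38.8, 37.3, 24.3 and 16.5 CPM, at 0.626 and 0.442, and Rtp4, at 72.0, 70.4, 52.7 and 49.5 CPM, at 0.732 and 0.703. Oasl1 and Ifih1 were low in both knockout libraries of both microglia and macrophages. In macrophages these genes were named because they led the members lower in both pairs. After laser, Irf7 was at 0.483 (0.414–0.560), Isg15 at 0.480 (0.424–0.543) and Rsad2 at 0.515 (0.445–0.594) of WT, whereas in control the 3 ratios were 1.33, 0.828 and 1.11. In the macrophages with no Lyve1, Folr2 or Cd163 UMI, chosen after seeing the data, the laser ratio of the core was 0.339 (0.307–0.374).

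In classical monocytes the core was at 1.02 (0.937–1.11) and 0.934 (0.843–1.03) of WT. Phf11d was 2.22-fold (1.43–3.51) and 2.20-fold (1.43–3.35) higher in Nr4a1-/- monocytes, Bst2 1.70-fold and 1.19-fold, and Irf7 1.34-fold and 1.18-fold. Gbp3 (52.5, 46.9, 69.4 and 66.1 CPM) was also higher in both. Oas1a, at 0.509 (0.350–0.732) and 0.422 (0.186–0.842), and Rsad2, at 0.690 (0.519–0.913) and 0.445 (0.314–0.617), were lower in both pairs, as were Oasl1 (35.6, 47.8, 20.8 and 36.7 CPM) and Dhx58 (24.4, 28.5, 21.5 and 23.9 CPM). Of 39 members with 20 UMIs in the higher library of both pairs, 14 were higher and 8 lower in both (28.6% and 28.4% of all genes).

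In cDC2 the core was at 0.548 (0.459–0.653) and 0.480 (0.413–0.555) of WT, and 18 of 42 members were 2-fold lower after laser (5.78% of all genes). The cDC2 control ratio was 0.229 under the stricter gate and 0.869 without Isg15. In cDC1 the core was at 0.398 (0.259–0.597) of WT in control, where 10 of 27 members were 2-fold lower and 1 higher (5.94% and 5.43%), and at 1.19 (0.947–1.48) after laser. The laser ratio of cDC1 was 0.634 (0.441–0.893) without Isg15 and 0.665 (0.448–0.964) under the stricter gate. In neutrophils the core was at 1.15 (1.02–1.29) in control, or 0.956 (0.821–1.11) without Isg15, and at 0.765 (0.642–0.906) after laser, with Isg15 1.51-fold (1.26–1.81) and 1.18-fold (0.878–1.56) higher and Ifit1 (45.9, 70.9, 13.6 and 49.998 CPM) lower in both pairs. B cells were at 0.614 (0.508–0.739) and 1.02 (0.776–1.32). There Ifit3 (11.1, 10.3, 1.77 and 2.14 CPM), Isg20 (17.4, 17.2, 8.84 and 6.41 CPM), Isg15 and Ifi204 (16.5, 26.2, 1.33 and 14.96 CPM) led the members lower in both pairs. Nr4a1-/- laser B cells held 468001 UMIs in all, so low values there rest on very few UMIs. Members of B, T and NK cells were named here by that rule, so their shared direction was set by the choice. T cells were at 0.722 (0.614–0.847) and 1.01 (0.837–1.20), with Gbp3 (11.5, 20.5, 19.9 and 32.5 CPM), Rtp4 (14.4, 18.4, 16.6 and 27.4 CPM) and Ifit2 (9.68, 14.2, 12.5 and 15.4 CPM) higher and Ifit3 (7.06, 24.1, 3.24 and 11.99 CPM) and Rsad2 (12.3, 23.6, 6.47 and 11.99 CPM) lower in both. NK cells were at 0.951 (0.715–1.26) and 0.562 (0.335–0.894), with Irf9 (39.7, 35.6, 26.3 and 15.4 CPM), Xaf1, Ddx58 and Gbp7 lower in both. Over the 9 lineages the mean log2 ratio was −0.66 in control and −0.54 after laser. The Nr4a1-/- control library differs from the others in its library number as well, and this cannot be told apart from genotype or treatment in the pairs that use it.

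How many cells carried the signal was counted after each cell was reduced at random to 2000 UMIs, which left out 1196 cells of lower depth. A cell with UMIs of at least 3 of the 14 core genes was called ISG-carrying. These were 105 of 3367 cells in WT control (3.12%, Clopper-Pearson 95% interval 2.56–3.76%), 244 of 3545 in WT laser (6.88%, 6.07–7.77%), 57 of 1885 in Nr4a1-/- control (3.02%, 2.30–3.90%) and 77 of 1230 in Nr4a1-/- laser (6.26%, 4.97–7.76%). Both laser libraries had a higher share than both controls, a value that holds the shift in composition given above, and among Nr4a1-/- macrophages the share was 9.56% in control and 8.78% after laser. Without thinning the shares were 11.2%, 22.3%, 9.01% and 11.04%, with Nr4a1-/- laser, the shallowest library, level with WT control. The ISG-carrying cells held 43.9%, 64.4%, 45.5% and 62.6% of the thinned core UMIs of their library. A median of 6, 6, 5 and 6 core UMIs was found in such a cell, and the richest cell of each library held 253, 774, 115 and 140 core UMIs before thinning.

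By lineage, macrophages were 30.5%, 43.0%, 42.1% and 46.8% of the ISG-carrying cells of a library. Neutrophils had shares of 14.1%, 16.0% and 18.0% in the first 3 libraries, and in Nr4a1-/- laser fewer than 30 neutrophils reached 2000 UMIs. Classical monocytes had 9.09%, 11.6%, 7.30% and 12.9% and macrophages 7.29%, 11.8%, 9.56% and 8.78%. Microglia had 6 of 303 (1.98%, 0.730–4.26%), 30 of 325 (9.23%, 6.31–12.9%), 0 of 182 (0%, up to 2.01%) and 2 of 90 (2.22%, 0.270–7.80%), so that the WT laser share was above the intervals of both control libraries. NK cells had 0 of 317, 2 of 273, 0 of 181 and 0 of 75, T cells between 0% and 2.70% and B cells between 0.218% and 1.57%. No lineage is known to lack these genes, so no background share from free RNA could be set. The share of microglia with any core UMI in unthinned cells was 36.7%, 62.6%, 24.5% and 21.4%, at the unequal depths given above.

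**Figure D4:**
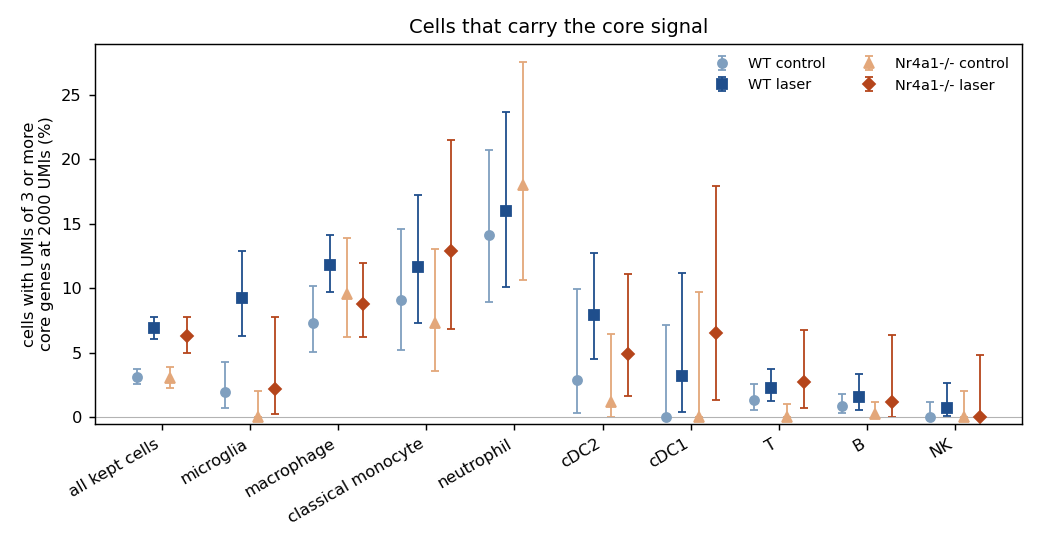
Share of cells (y axis, percent) with UMIs of at least 3 of the 14 core ISGs after thinning to 2000 UMIs, in all kept cells and by lineage (x axis), 1 point per library with Clopper-Pearson 95% bars. In all cells the laser libraries are at 6.88% and 6.26% and the controls at 3.12% and 3.02%; the neutrophil value of Nr4a1-/- laser is missing because fewer than 30 cells were left.

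The other 28 members had no part in the definition of ISG-carrying cells. All 28 were higher in these cells than in the remaining cells of the same library in each of the 4 libraries, with median ratios of 5.20, 5.26, 4.78 and 4.33. Since lineages differ, the ratio was also taken within a lineage. Among WT laser macrophages all 28 were higher, at a median ratio of 3.77, with 28 intervals above 1. Herc6, Ifi44 and Ifi213 were 6.75-fold, 6.30-fold and 6.09-fold higher, Irf7 4.03-fold, Bst2 2.26-fold, Ifitm3 1.83-fold and Ifi27l2a 1.54-fold. Of these 7, Ifitm3 and Ifi27l2a, the members with the highest level in the other macrophages, differed least. Among WT laser microglia 27 of 27 were higher, at a median of 4.44, including Slfn5 at 6.62-fold, whereas Irf9 was at 1.10 (0.649–1.78). Among WT laser T cells 26 of 26 were higher, at a median of 9.27, and Slfn5 was 44.8-fold higher. In WT control macrophages 27 of 28 were higher, at a median of 2.64. These ratios compare cells of 1 library and are no test of a condition. No share over all genes is set beside these counts and medians, so they cannot be read as particular to the members.

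Bst2 is the member whose protein, CD317, was in the antibody panel. In macrophages CD317 was at 9.02, 63.0, 89.7 and 33.1 tags per 10000 tag UMIs, beside Bst2 at 368, 501, 544 and 455 CPM. In microglia the tag was at 9.22, 36.4, 53.1 and 50.8, and in B cells at 3.95, 22.99, 20.3 and 16.1. The WT control library was the lowest for the tag in all 3, and over all cells the tag was at 5.18, 35.6, 27.6 and 25.5 beside 145, 314, 221 and 309 CPM of Bst2. Other tags were not lowest in WT control over all cells. CD169 was at 17.9, 12.3, 13.8 and 18.8, CD274 at 14.9, 15.7, 7.83 and 12.2 and CD253 at 37.9, 26.7, 38.3 and 27.6 per 10000. The low CD317 tag in every lineage of 1 library cannot be told apart from staining of that library with this antibody, and the part of staining or sequencing was not tested. Neutrophils were at 4.25, 21.1, 4.89 and 20.03 tags, beside Bst2 RNA at 56.0, 196, 43.4 and 87.5 CPM. These tag values rest on 91, 234, 109 and 32 CD317 UMIs in 161, 131, 93 and 57 cells. The tag totals were unequal, at 214136, 110898, 223115 and 15980 UMIs. Per cell, Nr4a1-/- laser neutrophils held fewer CD317 UMIs than Nr4a1-/- control, so the order of the 2 depends on the total. The median cell held 0 to 3 CD317 UMIs, so values of single cells were not used.

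**Figure D5:**
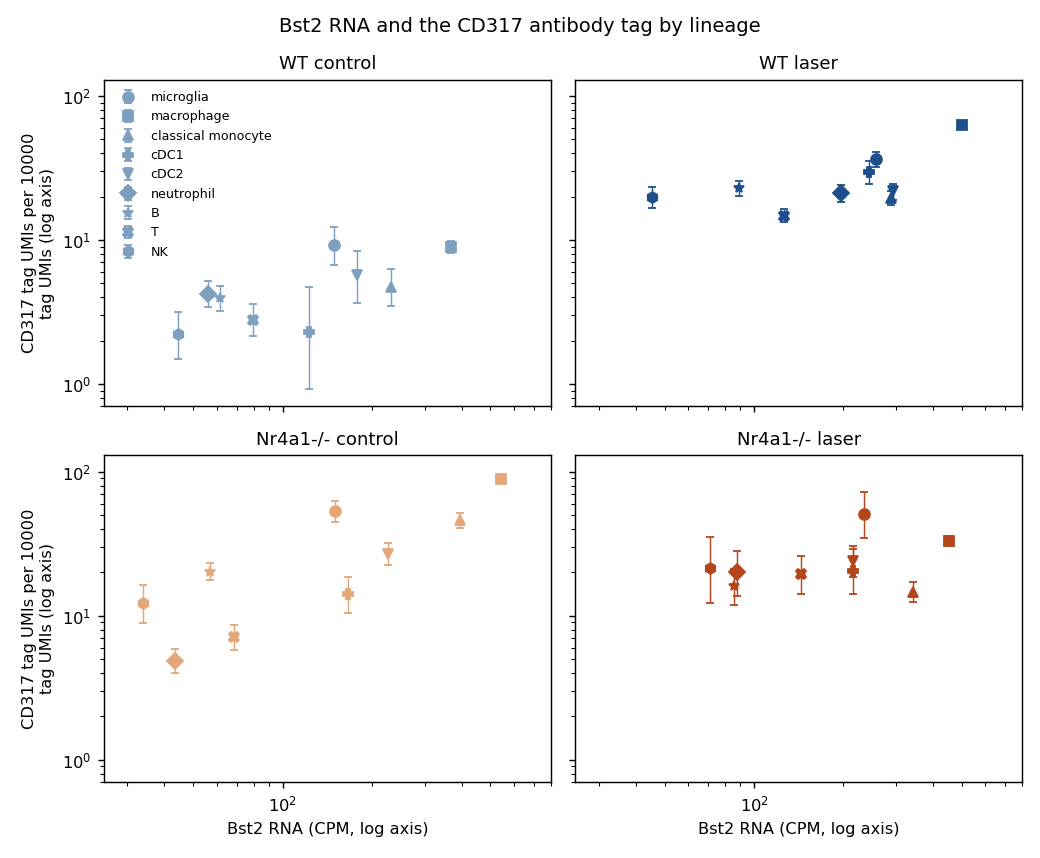
CD317 tag UMIs per 10000 tag UMIs (y axis) against Bst2 CPM (x axis), 1 panel per library and 1 point per lineage for 9 lineages. In each library macrophages lie at the right with 368 to 544 CPM, and the whole WT control panel lies low on the tag axis, with macrophages at 9.02.

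The genes upstream of the members were described from fixed lists. Of the 21 interferon ligand genes, the Ifna genes had 0 UMIs in all 4 libraries, and Ifnb1 had 8, 33, 7 and 0 UMIs in all cells, of which microglia held 2, 17, 4 and 0. Ifng was found mainly in NK cells, at 168, 105, 138 and 142 CPM, and in T cells, at 46.3, 76.9, 52.7 and 331 CPM, highest in Nr4a1-/- laser T cells. Of the 6 receptor genes, 5 had at least 10 UMIs in microglia, and 0 of these passed 2-fold in any of the 4 pairs, with Ifnar1, the signalling subunit of the type I receptor, at 68.7, 109, 75.5 and 118 CPM. Of 12 signalling genes in microglia, 0 were 2-fold higher and 1 was lower in each pair. Over all genes in microglia, 8.12% were 2-fold higher and 5.49% lower after laser in WT, and 9.22% and 8.66% in Nr4a1-/-. For Nr4a1-/- against WT these shares were 2.96% and 5.70% in control and 6.34% and 9.28% after laser. Counts this small thus do not set the receptor and signalling lists apart from all genes. Irf1, a factor of the interferon gamma response and of stress, was at 350, 114, 305 and 99.3 CPM in microglia and at 486, 201, 316 and 221 CPM in macrophages, lower after laser in both genotypes.

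Of 12 interferon gamma targets, 8 had enough UMIs in microglia. After laser 3 of these were 2-fold higher and 0 lower in WT microglia (8.12% and 5.49% of all genes), and 1 was higher and 2 lower in Nr4a1-/- microglia (9.22% and 8.66%). In WT macrophages 0 of 10 were higher and 3 lower (4.86% and 12.2%). In Nr4a1-/- macrophages 4 of 10 were 2-fold lower than WT in control and 3 of 10 after laser (5.54% and 3.59%). Cxcl10, a chemokine of both interferon types, was at 178, 313, 143 and 241 CPM in microglia and at 194, 155, 99.8 and 73.0 CPM in macrophages. Cxcl9, a chemokine induced mainly by interferon gamma, was at 95.8, 73.1, 105 and 6.23 CPM in macrophages, lowest in Nr4a1-/- laser, the library in which T cell Ifng was highest. A list of 10 genes of nucleic acid sensing upstream of interferon held receptors, adaptors and kinases, and none of the member sensors. Of these 10, 0 were 2-fold higher and 1 lower in WT microglia after laser (8.12% and 5.49% of all genes).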

How the data were processed

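Single cells of 4 pooled groups were measured as 4 RNA libraries and 4 ADT libraries of the same cells, 1 library per group. Per the labels, Cell Ranger 7.0.1 and the build mm10 were used by the authors, who deposited filtered matrices holding a UMI count, not normalized, for each gene or tag in each cell. The labels name the 3' v2 kit and the methods the v3 kit. As the 4 ADT samples share 1 genotype and 1 treatment entry in their labels, their titles were used to map them. All columns were mapped, and 0 were left out.

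A cell was kept if it had from 200 to 5000 genes and if mitochondrial genes took no more than 15% of its UMIs. The upper limit on genes and the exclusion of ties were the only guards against doublets, and no doublet caller was run. A cell was gated to the lineage with the most of its 8 markers detected, at least 3 and more than any other lineage. Cells with fewer than 4 markers or a lead under 2 were left out by the stricter gate. Counts were summed per lineage and library and given as CPM of all UMIs of those cells, and levels are not compared between genes. As reads are 3′ tags, a gene's level depends on its priming. Lineages with at least 30 cells in every library were tested with edgeR 4.0.16 (TMM, quasi-likelihood, library as a block, 36 sums, 24 residual degrees of freedom, biological coefficient of variation 0.184). DESeq2 1.42.0 was the alternative test. Only the edgeR test was checked on simulated counts, in which libraries differed in depth alone. That check covers neither DESeq2 nor effects of laser or genotype. Libraries were compared as CPM ratios with exact conditional binomial intervals at 95%, shares with Clopper-Pearson intervals, and 0 UMIs as compatible with up to 3. Log2 ratios of single members, their medians and the count of members past 2-fold had 0.5 added to the UMI counts and used genes with at least 10 UMIs in the pair.

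Members and lists were chosen with earlier results of these data known. Full values are given for Isg15, Ifit3, Rsad2, Usp18, Irf7, Stat2, Bst2, Ifitm3, Ifi27l2a and Gbp2 in the lineages where they carry a result, for up to 4 members per direction with the largest ratio among those with at least 20 UMIs and the same direction in both pairs, and for up to 4 members per lineage with the largest tested difference. Alternatives were other size factors, no filter on low counts, each library left out, a stricter gate, cells thinned to 2000 or 1000 UMIs, a mitochondrial limit of 10%, no upper limit on genes, the core without Isg15 or without ISG-carrying cells, at least 2 or 5 core genes, a pseudocount of 1, a minimum of 20 UMIs and, chosen after seeing the data, macrophages without Lyve1, Folr2 and Cd163. R 4.3.3, matplotlib 3.10.9, pandas 2.3.3, numpy 2.4.6 and scipy 1.17.1 under Python 3.11.15 were used.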

Additional observations from a re-analysis of the deposited data

Results flagged for a closer look

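In 2 lineages the summed core of 14 members was higher after laser in WT eyes and lower in Nr4a1-/- eyes, with intervals that left out 1 in both. In macrophages the ratio of laser to control was 1.52 in WT and 0.877 in Nr4a1-/- eyes. In neutrophils it was 1.21 and 0.809. The neutrophil core was also higher in Nr4a1-/- than in WT eyes in control, at 1.15, and lower after laser, at 0.765. Without Isg15 the control ratio was 0.956, and without ISG-carrying cells the WT laser ratio of neutrophils was 0.632. Each ratio compares 1 library with 1 other, so none of these differences was tested.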

How the results depend on the processing

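Of the summary results, 236 alternative values kept their direction and their side of the threshold or stayed within the spread allowed, and 46 moved. Of the lineage counts, without the filter on low counts 4 members were higher in B cells, 4 in T cells and 14 were lower in microglia. Under the stricter gate 4 were higher in B cells and 5 in T cells. With thinned cells 5 were higher in T cells, 3 higher and 7 lower in cDC1, 10 higher in cDC2 and 1 lower in macrophages. In cDC2 1 member was lower in DESeq2, with RLE size factors, without the filter and under the stricter gate. With each library left out in turn, the counts ranged from 1 to 2 lower in macrophages, 1 to 3 lower in neutrophils, 3 to 4 higher in T cells, 2 to 4 higher in B cells, 0 to 2 lower in cDC2 and 6 to 14 higher in microglia. The mean log2 core ratio over lineages for laser in WT was 0.76 without Isg15, 0.43 under the stricter gate, 0.68 with thinned cells and 0.092 without ISG-carrying cells. For laser in Nr4a1-/- it was 1.02 with thinned cells and 0.37 without ISG-carrying cells. For genotype it was −0.77 under the stricter gate and −0.49 without ISG-carrying cells in control, and −0.65 without Isg15 and −0.42 without ISG-carrying cells after laser. The values 1.02, 0.37 and −0.42 leave out neutrophils, as too few of Nr4a1-/- laser reached the thinning depth. They are not over the same lineages as the main means. Of the lineage ratios whose interval left out 1, 5 turned direction: the WT laser ratio without ISG-carrying cells in cDC1 (−0.17), cDC2 (−0.15) and neutrophils (−0.66), the Nr4a1-/- laser ratio of classical monocytes without ISG-carrying cells (−0.053) and the control genotype ratio of neutrophils without Isg15 (−0.064). A further 9 ratios whose interval held 1 turned under at least 1 alternative, among them the laser genotype ratio of cDC1 without Isg15 (−0.66) and under the stricter gate (−0.59), and the Nr4a1-/- laser ratio of NK cells without Isg15 (0.12). The share of ISG-carrying cells in the 4 libraries was 7.34%, 13.5%, 6.63% and 11.3% with at least 2 core genes, 1.04%, 3.05%, 1.06% and 2.20% with at least 5, 11.2%, 22.3%, 9.01% and 11.04% without thinning, and 1.51%, 3.84%, 1.36% and 2.84% at 1000 UMIs. Removing ISG-carrying cells removes core UMIs by construction, and cells below the thinning depth were left out with them. Elsewhere the cause was not tested. No paired analysis was possible because each group holds replicate 1 only. Depth limits neutrophils, B, NK and T cells of Nr4a1-/- laser most, at a median of 1780, 1967.5, 2402 and 2808 UMIs per cell.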
